A study of Mus musculus with 7 samples.

Results

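The Cwc22 segment of mouse chromosome 2 is described here through the H3K27me3 islands called in 7 single livers. Its members are the islands that overlap 77650001 to 77910000 of mm9, a stretch of 260 kb. There were 38 such islands among 122262 in all, 8, 7 and 4 in vehicle replicates 1 to 3 and 8, 5, 3 and 3 in TCPOBOP replicates 1 to 4. Of these, 31 lay wholly inside the segment and 7, 1 in each liver, ran across its left edge. The segment was selected on the score per window of its islands in these same livers, which differed between them, so density and cover in it are described and not tested.

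The livers came from male CD-1 mice, an outbred stock, of 7 weeks of age. Each of 3 mice had been given vehicle, 1% DMSO in corn oil, and each of 4 mice TCPOBOP at 3 mg/kg, and tissue was taken 27 h later. TCPOBOP is a ligand of the nuclear receptor CAR, which induces drug-metabolising enzymes in liver. Chromatin was precipitated from each liver separately with 1 antibody to H3K27me3.

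H3K27me3 is the histone mark that Polycomb repressive complex 2 lays down over silent genes, often in broad domains. Cwc22 encodes a splicing factor that brings the helicase EIF4A3 to the spliceosome, a step in loading the exon junction complex onto spliced RNA. The gene lies in R2d, a long segment that some mice carry in more copies than the reference strain does. Reads from a copy that the reference lacks align to the copy it has. No input library was among the files used here, so more copies of the DNA and more mark on each copy cannot be told apart in what follows.

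The genes next to Cwc22 were taken from RefSeq on GRCm38.p6, whose coordinates differ from those of the islands. In that order Gm17957, Gm17927 and Gm35431 precede Cwc22 and Gm13726, Gm52519 and 4930440I19Rik follow it. The nearest protein-coding neighbours are Zfp385b, which encodes a zinc finger protein, and Gm14461. Which island lies over which of these genes, and whether one covers the Cwc22 start site, was not analysed here.

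The promoter of Cwc22 is shown because it is the start of the gene that names the segment. RefSeq lists 1, on the minus strand at chr2:77946307-77946606 of GRCm38.p6, from 250 bases before to 50 bases after the start. Capitals mark each CG dinucleotide, a pair of letters that reads the same on both strands.
Cwc22 promoter: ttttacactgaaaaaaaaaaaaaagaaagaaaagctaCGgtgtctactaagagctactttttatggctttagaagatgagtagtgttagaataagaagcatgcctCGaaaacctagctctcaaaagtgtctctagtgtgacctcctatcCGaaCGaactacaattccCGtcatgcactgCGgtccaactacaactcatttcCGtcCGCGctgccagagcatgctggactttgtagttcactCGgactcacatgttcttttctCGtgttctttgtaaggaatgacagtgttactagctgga
The stretch held 11 CG dinucleotides and 42.0% of its bases were G or C. Of the 32851 listed mouse promoters of the same 300 bases, 41.4% had as many CG or more, and the medians were 7 CG and 52.7% G or C.

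Depth differed little between the livers. The authors' score of an island grows with its width and with depth, so it was divided by the number of 400-bp windows in the island and set against the median of its own list, 2.56 to 3.05. Read numbers recovered from the scores ran from 27939358 to 32536299, a ratio of 1.16.

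The segment was dense in 3 livers and ordinary in 4. Vehicle replicates 1 and 2 and TCPOBOP replicate 1 held 15 islands with a score per window above 6, a limit set after the values were seen, and these ran from 6.46 to 102. The other 8 islands of these livers in the segment had 1.83 to 5.79. The 15 islands of the other 4 livers had 1.71 to 3.69, or 0.561 to 1.30 times their list medians. That no island of those 4 livers reached the 15 dense ones follows from how the limit of 6 sorted the livers. Their highest value, 3.69, is given as a description. An island of 91.2 kb in vehicle replicate 1 lay just under the limit, at 5.79, and an island of 4.40 kb in TCPOBOP replicate 1 just above it, at 6.46.

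**Figure D1:**
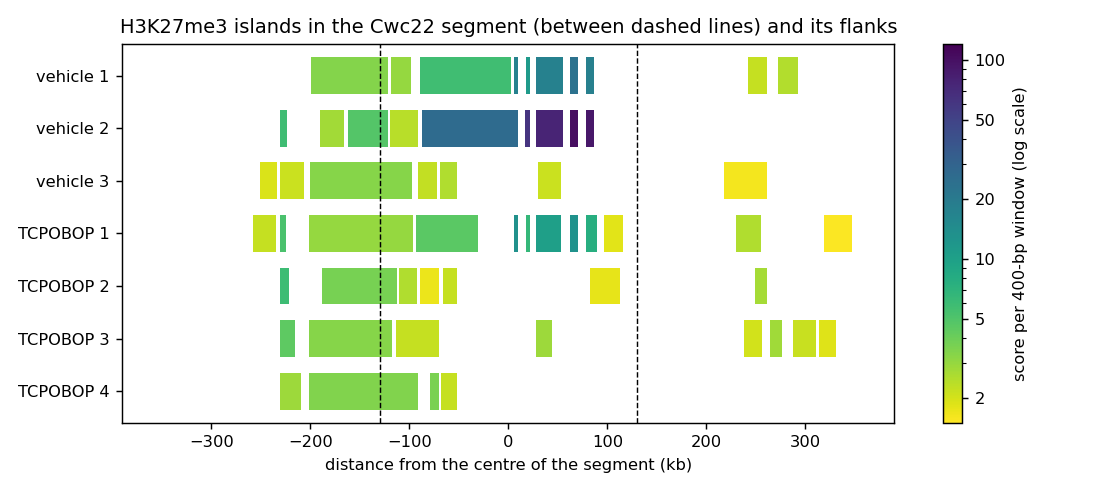
Each bar is 1 island, drawn to scale by its distance in kb from the centre of the segment (x axis), for the 7 livers (rows), and coloured by its score per window on a log scale. Islands above 6 per window lie right of the centre in vehicle 1 and TCPOBOP 1, and on both sides of it in vehicle 2. None of them lies beyond 77870000, and the flanks hold no island above 6 per window in any of the 7 livers.

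Vehicle replicate 2 was the densest. Its 5 dense islands, from left to right, had scores per window of 26.3, 62.0, 78.0, 102 and 92.6, against a list median of 3.02. The 4 highest were the 4 densest of all 16257 autosomal islands of that liver. The island with 102 reached 33.8 times the list median.

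Vehicle replicate 1 had lower values in the same places. Its dense islands had 17.8, 11.2, 17.8, 23.1 and 18.2 per window, against a list median of 2.56, and lay between rank 2 and rank 19 of its 14157 autosomal islands. TCPOBOP replicate 1 had 13.4, 6.46, 10.2, 13.04 and 7.65, against a list median of 2.65. Its ranks among 20531 autosomal islands were 18, 539, 67, 22 and 270, so the density stood out less there.

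Density in the segment went with the general density of the list in some livers and not in others. Islands above 6 per window made up 12.05% of the list of vehicle replicate 2, the densest liver in the segment and the highest share of the 7. They made up 2.08% of that of vehicle replicate 1, the lowest share, and 3.51% of that of TCPOBOP replicate 1. TCPOBOP replicate 2 had 11.1% such islands in its list and none in the segment. The 3 dense livers did have the lowest read numbers, 27939358 to 31419033 against 32154814 to 32536299 in the other 4. The part of depth or of list density in the pattern was not tested.

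**Figure D2:**
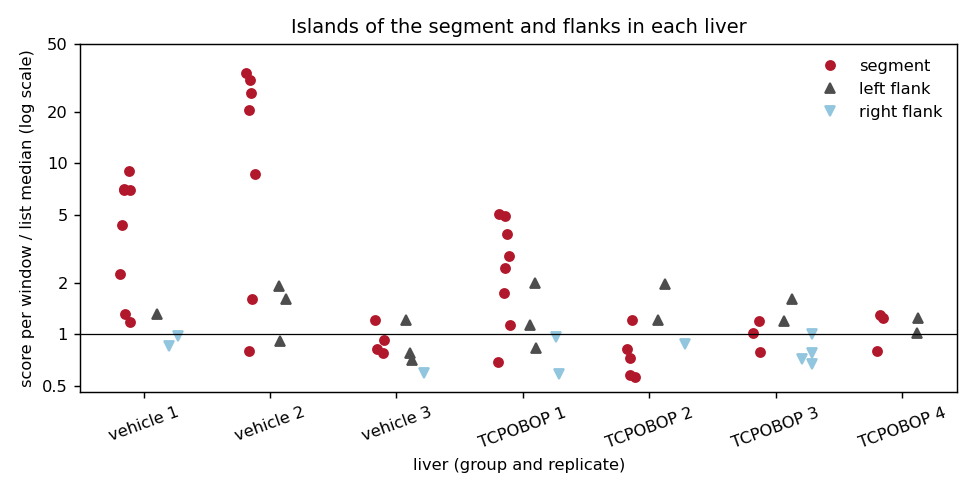
Score per window of each island divided by the median of its own list (log scale) for the 7 livers, with circles for the segment and triangles for the flanks. Circles reach 33.8 in vehicle 2, 9.05 in vehicle 1 and 5.04 in TCPOBOP 1, and stay at 1.30 or below in the other 4 livers.

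Merging the dense islands of the 3 livers gave 5 blocks, numbered from the left. Block 1 runs from 77692801 to 77790000, block 2 from 77797201 to 77802000, block 3 from 77808001 to 77835600, block 4 from 77842001 to 77850400 and block 5 from 77858001 to 77870000. Vehicle replicate 2 had 1 island over block 1. In vehicle replicate 1 the block was split by a break of 2.80 kb, into 91.2 kb at 5.79 per window and 4.80 kb at 17.8. In TCPOBOP replicate 1 a break of 36.4 kb left 62.4 kb at 4.59 and 4.40 kb at 13.4. In both of these livers the left part of the block was thus less dense than its right end.

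All 3 dense livers had a break between each block and the next. That no dense island lay there in any of them follows from how the blocks were merged. A break that was not shared, as within block 1, does not separate blocks. They ran to 7.20 to 7.60 kb between blocks 1 and 2, 6.0 to 6.40 kb between blocks 2 and 3, 6.40 to 8.80 kb between blocks 3 and 4, and 7.60 to 8.00 kb between blocks 4 and 5. Islands in these lists are at least 2800 bp apart, so each break holds 7 or more windows in a row that were not counted. In vehicle replicate 2 the break between blocks 4 and 5 spanned 19 windows between islands of 102 and 92.6 per window.

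The edges of blocks 2 to 5 fell at nearly the same bases. Of the 8 edges, 2 were at the same base in all 3 livers, 6 were within 1 window, and the right edges of blocks 3 and 5 differed by 5 and 10 windows. Both of these wider differences came from TCPOBOP replicate 1, which ended at 77833600 where the vehicle livers ended at 77835600, and at 77870000 where they ended at 77866000. These edges are shared by islands of 1 locus and are not independent of each other.

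The 4 other livers had sparse islands in part of these blocks. All 4 had islands over block 1, at 1.93 to 2.74 per window together, or 0.633 to 0.979 times the list medians. Over block 3 vehicle replicate 3 had 1 island from 77810001 to 77832800 at 2.13 per window, and TCPOBOP replicate 3 had 1 from 77808401 to 77824000 at 2.85. TCPOBOP replicate 2 had 1 island that began in block 5, from 77862001 to 77893200, at 1.76. TCPOBOP replicate 4 had no island from 77728400 to the right edge of the segment, and blocks 2 and 4 had no island in any of the 4 livers. These islands of blocks 3 and 5 lay between 0.577 and 1.02 times the list medians, below the dense livers in the same blocks.

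To put the densities on a scale of reads, each score per window was turned into the number of reads in a window that has that score, and divided by the mean reads per window of the library. In block 4 vehicle replicate 2 stood at 63.2 reads against a mean of 5.26, or 12.01 times the mean. Vehicle replicate 1 stood at 26.6 reads, or 4.78 times its mean, and TCPOBOP replicate 1 at 20.3 reads, or 3.43 times.

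The order of the 3 livers was the same in each block they could be compared in. Vehicle replicate 2 exceeded vehicle replicate 1 by 2.15 to 2.70 times over 5 blocks. Vehicle replicate 1 exceeded TCPOBOP replicate 1 by 1.35 to 1.60 times over 4 blocks. In blocks 2 to 4, where the islands had nearly the same edges, the ratios of equivalent reads were 2.44 to 2.70 and 1.35 to 1.40. Among the blocks with a value all 3 livers were highest in block 4, although the densest island of TCPOBOP replicate 1 in the segment was the right end of block 1, at 13.4 per window. At that right end, an island in both livers, vehicle replicate 1 exceeded TCPOBOP replicate 1 by 1.19 times. These ratios have no replicate check, since each rests on 1 liver against another.

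**Figure D3:**
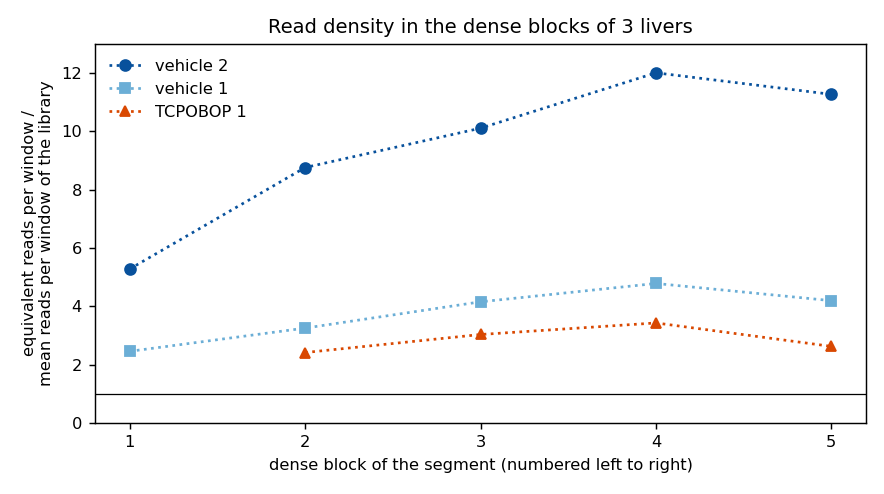
Reads per window equivalent to the score, divided by the mean reads per window of the library (y axis), in the 5 dense blocks (x axis) of the 3 dense livers; the horizontal line is the library mean. The lines keep their order and have their highest block value in block 4, at 12.01, 4.78 and 3.43; TCPOBOP 1 has no value in block 1, where its mean score was under 6.

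For 4 narrow islands the reads themselves could be recovered, because 1 total of reads, at up to 38 reads in a window, gave the deposited score. The right end of block 1 held 264 reads in 12 windows in vehicle replicate 1 and 215 reads in 11 windows in TCPOBOP replicate 1, or 22.0 and 19.5 reads per window. Block 2 held 172 reads in the 10 counted windows of vehicle replicate 1 and 126 in the 8 counted windows of TCPOBOP replicate 1. With windows that were not counted taken as empty, these came to 15.6 and 11.5 reads per window. The equivalent numbers for the 4 islands were 23.04, 20.5, 18.1 and 14.3, above the recovered reads per window in each of them. Over the library means, the recovered reads of vehicle replicate 1 exceeded those of TCPOBOP replicate 1 by 1.20 times at the end of block 1 and by 1.45 times in block 2. The second ratio rests on taking uncounted windows as empty. Per counted window, block 2 held 17.2 reads in vehicle replicate 1 and 15.75 in TCPOBOP replicate 1.

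The flanks, each as wide as the segment, held no dense island, though 1 in the left flank of TCPOBOP replicate 2, at 5.98, lay just under the limit. The left flank from 77390001 to 77650000 had 16 islands at 1.93 to 5.98 per window, and the right flank from 77910001 to 78170000 had 10 at 1.54 to 2.80. In the 3 dense livers the flank islands reached 3.36, 5.80 and 5.28 per window for vehicle replicates 1 and 2 and TCPOBOP replicate 1, against 23.1, 102 and 13.4 in the segment. The last island of the segment ended at 77895600 and the first of the right flank began at 77997601, so the right edge of the segment lay in a stretch with no island in any liver.

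A broad domain crossed the left edge in every liver. It spanned 78.0, 39.6 and 102.8 kb in vehicle replicates 1 to 3, at 3.36, 4.83 and 3.34 per window. In TCPOBOP replicates 1 to 4 it spanned 105.2, 75.6, 83.6 and 110.0 kb, at 3.01, 3.69, 3.34 and 3.47. The dense and the ordinary livers overlapped in both values.

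Spread between the livers was wider in the segment than in almost all of the genome. Relative density, the summed score over the whole segment per window divided by the list median, was 2.36, 8.54 and 0.339 in vehicle replicates 1 to 3. It was 1.40, 0.286, 0.25 and 0.278 in TCPOBOP replicates 1 to 4. Its SD over the 7 livers on a log2 scale, after 0.1 was added, was 1.79. Among 7434 stretches of 260 kb with an island, the segment included, this ranked 2, and the median was 0.29. The highest was 2.79, on chromosome 11 from 95940001 to 96200000. Without vehicle replicate 2 the rank was 4. No other stretch in any liver had a relative density as high as the 8.54 of vehicle replicate 2. This spread is what the segment was chosen for and is given as a description.

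Few stretches were closely correlated with the segment over the livers. Over 6633 stretches at least 1 Mb away with an island in 3 or more livers, the median Pearson correlation with the segment over the 7 livers was -0.051, and 1 stretch reached 0.95. It lay on chromosome 2 from 103480001 to 103740000 with r = 0.951, but its relative density ran only from 0.0545 to 0.0837. The next in order was on chromosome 7 from 28340001 to 28600000 (r = 0.924), with 0.1003 to 0.225. Then came chromosome 3 from 85540001 to 85800000 (r = 0.922), with 0 in the 4 ordinary livers and 0.0431 to 0.0721 in the 3 dense ones. Those on chromosome 17 from 31200001 to 31460000 (r = 0.918) and chromosome 10 from 78780001 to 79040000 (r = 0.908) had 0.401 to 0.903 and 0.00688 to 0.102. None of the 5 came near the range of the segment, and these values share their libraries and depth. The 5 were picked as the highest of 6633 correlations over only 7 livers, and the part of chance in them was not tested.

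Both treatment groups held dense and ordinary livers. Relative density in the segment was 3.75 ± 4.27 (SD, n = 3) with vehicle and 0.553 ± 0.563 (SD, n = 4) with TCPOBOP, and the groups overlapped. The difference of -3.19 fell to -0.796 without vehicle replicate 2. Islands covered 172.8, 182.0 and 90.8 kb of the segment in vehicle replicates 1 to 3, and 169.2, 99.2, 71.6 and 63.6 kb in TCPOBOP replicates 1 to 4. The means were 149 ± 50.2 kb (SD, n = 3) and 101 ± 48.02 kb (SD, n = 4), a difference of -47.6 kb that was smaller than the SD of either group. In both measures the 3 dense livers, found in both groups, were the highest, which for relative density largely follows from how they were named. Between livers of the same replicate number, which the labels do not pair, both measures were lower with TCPOBOP in 3 of 3 pairs. The differences in relative density were -0.962, -8.25 and -0.0895 in pairs 1 to 3, with a mean of -3.10.

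Neither flank passed the test between the treatments. The flanks lay outside the stretch that set the segment, but the members that crossed the left edge also lay in the left flank. They supplied from 31.6 of 62.8 kb of cover in vehicle replicate 2 to all 69.6 kb in vehicle replicate 1. The left test was therefore not independent of the selection. The part at least 100 kb from the segment, which no member reached, was tried after the data were seen. It differed by 0.167 kb (exact permutation p = 0.886). The left flank had 69.6, 62.8 and 111 kb under islands in vehicle replicates 1 to 3, and 100.4, 66.8, 86.0 and 92.4 kb in TCPOBOP replicates 1 to 4. The means were 81.2 ± 26.2 kb (SD, n = 3) and 86.4 ± 14.3 kb (SD, n = 4). The difference of 5.20 kb did not pass a two-sided exact permutation test (95% interval -44.4 to 37.6 kb, p = 0.743, adjusted over both flanks 0.857). It turned to -0.6 kb without vehicle replicate 1 and to -4.00 kb without vehicle replicate 2. With the replicate number as a block it was 3.20 kb, higher with TCPOBOP in 2 of 3 pairs (exact sign-flip p = 0.75).

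In the right flank the cover was 39.6, 0 and 43.2 kb in vehicle replicates 1 to 3 and 54.4, 12, 70.8 and 0 kb in TCPOBOP replicates 1 to 4. The means were 27.6 ± 23.97 kb (SD, n = 3) and 34.3 ± 33.7 kb (SD, n = 4). The difference of 6.70 kb did not pass the test either (95% interval -73.2 to 91.6 kb, exact permutation p = 0.857, adjusted 0.857). It turned to -7.10 kb without vehicle replicate 2 and to -5.47 kb without TCPOBOP replicate 3, and was 0 without TCPOBOP replicate 1. With the replicate number as a block it was 18.1 kb, and cover was higher with TCPOBOP in 3 of 3 pairs, by 14.8, 12 and 27.6 kb. The exact sign-flip p was 0.25, the lowest that 3 pairs can give. With 35 splits of the livers the smallest p is 0.0286. The groups overlapped in both flanks and in the segment, whereas covered length did not overlap between the groups in 3.37% of 6972 stretches of 260 kb with an island in at least 2 livers, higher with TCPOBOP in 1.99% and lower in 1.38%.

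**Figure D4:**
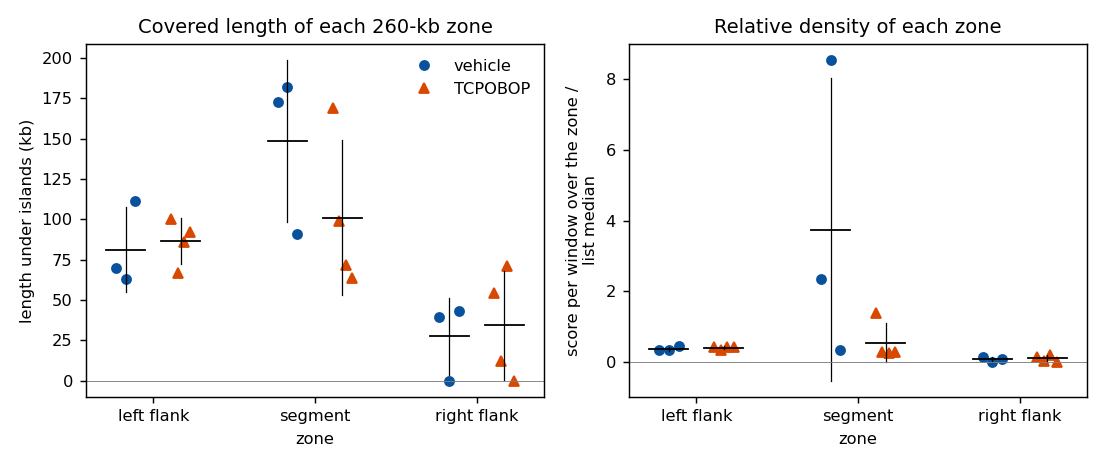
Length under islands in kb (left) and score per window over the whole zone divided by the list median (right) for the 3 zones of 260 kb; each point is 1 liver, long bars are group means and thin bars the SD (n = 3 vehicle, n = 4 TCPOBOP). In the segment vehicle 2 (8.54), vehicle 1 (2.36) and TCPOBOP 1 (1.40) stand above the other 4 livers, while in the flanks the groups overlap at low values.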

How the data were processed

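Per the submitters' processing notes, Bowtie2 2.3.2, SICER 1.1 and the build mm9 were used. The deposited files give 1 list of islands per liver, not pooled, with a score for each island; their names record windows of 400 bp, gaps of up to 2400 bp and an E-value of 100. Input, filters and treatment of duplicates are not given in the sources used here. The segment, the lists and the tests were chosen with earlier results of these data known.

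Computations used Python 3.11.15, NumPy 2.4.6, SciPy 1.17.1 and pandas 2.3.3. In SICER a window's score is minus the log of its Poisson probability given the depth. The depth of each library was therefore sought among whole numbers, as one at which sets of window counts matched the deposited scores of the 2 narrowest islands in all 12 digits, taking 80% of mm9 as mappable. The next 3 islands of each list served as a check: 20 of 21 were explained, and 0 of 210 tests with wrong numbers. In simulated data 3 of 3 libraries were recovered. In vehicle replicate 1 the 2 narrowest islands left 9 candidates, of which 1 explained 2 of the 3 check islands and the next best 0. In order of replicate, vehicle libraries had 29533929, 27939358 and 32536299 reads and TCPOBOP libraries 31419033, 32388020, 32292090 and 32154814, as counted by SICER. A window counted at 8 or 9 reads. The score rises faster than the reads, so an equivalent number of reads overstates the mean of uneven windows.

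An island cut by the edge of a zone gave the share of its score that lay inside. Stretches of 260 kb were laid from the start of each chromosome. Each sample is 1 liver, the replicate of all comparisons. Deviations from the group means over 6974 stretches were compared between livers of the same number (Pearson r 0.138, 0.546 and 0.177 for numbers 1 to 3). For 9 pairs of unlike number r was -0.341 to 0.216, so only number 2 stood out. The sample labels name no pairing. The number was tried as a block on that limited ground. Named stretches were the 5 with the highest correlation with the segment and the 5 with the highest SD over livers. Markers of liver cells and the splicing partners of CWC22 were not analysed here, since no annotation of mm9 was used.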

Additional observations from a re-analysis of the deposited data

Results flagged for a closer look

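Of 4 measures of the flanks, 1 set a TCPOBOP liver well apart from the other 3 of its group. Chance does so in about 1 group in 20 for a single measure, and more often over 4. TCPOBOP replicate 2 had a relative density of 0.336 in the left flank, where the others had 0.418 to 0.432. The vehicle livers, at 0.329 to 0.446, spanned that value. TCPOBOP replicate 2 also had the highest list median, 3.05. Before division by the median its score per window over the flank was 1.02, against 1.14 to 1.18 in the others of its group. The segment itself was left out of this search, since it was selected on its density, but its members across the left edge count in the left flank.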

How the results depend on the processing

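Neither flank passed the test under any alternative run, with p from 0.267 to 1 for the left and from 0.25 to 1 for the right (exact permutation tests), but the sign of both differences depended on the choices. Without 1 vehicle or 1 TCPOBOP liver the smallest possible p is 0.0667 or 0.1, so those alternatives could not have passed. The left difference was -1.83 and -7.10 kb with flanks 2 and 4 times as wide, and -4.00 to 20.2 kb when 1 liver was left out. The right difference was -2.33 and -8.90 kb with the wider flanks, -8.00 kb with islands at or above the median score of their list, and -7.10 to 18.1 kb when 1 liver was left out. With the replicate number as a block, whose exact sign-flip test can reach p = 0.25 at the lowest, the differences were 3.20 kb on the left, 18.1 kb on the right, and -35.2 kb and -3.10 in covered length and relative density of the segment, and no call changed. In the segment the difference in relative density ran from -4.90 to -0.796 over the alternatives, and that in covered length from -76.5 to -30.9 kb. These alternatives reuse the values on which the segment was selected, so their shared sign is a description and was not tested. The 1 stretch of 130 kb inside the segment ranked 2 by spread among stretches of that width, and the segment ranked 2 to 4 when 1 liver was left out, an alternative added after the data were seen, as was the left flank from 100 kb outward (0.167 kb). With 30000000 reads for all libraries the highest equivalent was 64.9 reads. Windows under the read minimum leave no trace in the lists, so reads outside islands were not measured.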

Other observations

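Besides the segment, the stretches with the widest spread between livers were these. On chromosome 11 from 95940001 to 96200000 the relative density was listed at 0 in vehicle replicate 1 and TCPOBOP replicates 3 and 4, and at 2.99 to 4.24 in the other 4 livers. On chromosome 12 from 113620001 to 113880000 it was 0 in TCPOBOP replicate 2 and 0.592 to 1.37 in the others. On chromosome 14 from 81900001 to 82160000 it was 0.478 in vehicle replicate 1, 0.471 in TCPOBOP replicate 3 and at most 0.0822 elsewhere. On chromosome 11 from 78780001 to 79040000 it was 0 in vehicle replicate 1 and 0.0566 to 0.608 in the others, and on chromosome 8 from 24180001 to 24440000 it ran from 0.0528 to 0.787. The lowest liver was at 0.0528 in the stretch on chromosome 8 and at 0 in each of the other stretches. In the segment the lowest liver was at 0.25.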
